A study of Mus musculus with 6 samples.

Results

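Lysosomes are acidic compartments in which proteases, glycosidases and lipid-handling proteins break down material, and autophagy is the process that wraps cytoplasm in a membrane and delivers it there. Many genes of both systems are activated by the transcription factors TFEB and TFE3, which bind CACGTG-type elements in promoters and are held back in the cytoplasm while mTORC1 is active. In blood stem cells, lysosomes and autophagy are known for their part in keeping the cells quiescent and in clearing mitochondria.

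The genes described here are 34 named members of these systems, read by symbol from a table of 23235 genes, and all 34 were found. They comprise 14 lysosomal hydrolases and their cofactors, 6 lysosomal membrane and lipid export proteins, the 2 TFEB-family regulators and 12 genes of the autophagy machinery. RNA was sequenced with the Smart-seq2 low-input method from bone marrow long-term haematopoietic stem cells (LT-HSCs) isolated by cell sorting. There were 3 libraries from Hmces knockout mice and 3 from wild type (WT) mice, all C57BL/6 and aged 2 months. The labels and the table hold these 6 libraries, although the submitters' design text mentions duplicates. Every library title, of either genotype, contains the tag 13bp, which the sources used here do not explain. HMCES is a protein that shields abasic sites in single-stranded DNA. The sources used here do not give the type of Hmces allele, the antibody panel or whether libraries came from separate mice. The p-values therefore reflect the spread among these libraries alone, which may be technical.

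Estimated depth ran from 9300000 to 11200000 fragments in the knockout libraries and from 9700000 to 14200000 in WT libraries. Hmces itself, listed as 8430410A17Rik, had 8.95, 0.222 and 6.95 FPKM in the knockout libraries, against 39.5, 45.4 and 41.0 FPKM in WT libraries. Its log2 fold change was -3.225 (limma unadjusted p = 0.00192, adjusted p = 0.289). Hmces was therefore not called at an adjusted p under 0.05, so a gene not called can still differ by this much. On the leading principal component, knockout replicate 2 scored 67.0, and no other library scored above 10.1 or below -33.6. Among stem cell markers, Kit was at 101 FPKM or more in every library, whereas Slamf1, which encodes CD150, did not exceed 5.08 FPKM and Hoxb5 and Fgd5 did not exceed 1.23 FPKM. Cd34 and Flt3, which LT-HSCs carry at low levels, stood between 453 and 499 FPKM and between 121 and 152 FPKM. The 14 neutrophil and granulocyte progenitor markers summed to 18990 to 25420 FPKM in knockout libraries, against 6736 to 10520 FPKM in WT libraries. All 14 had a positive log2 fold change, and none was at 0 in any library. For 13 of them every knockout library lay above every WT library, where this held for 7.47% of all genes tested. Limma called 2 of the 14 higher in knockout cells, Mpo and Ctsg (adjusted p = 0.0307 and 0.0494). The 17 monocyte and macrophage markers summed to 156 to 219.9 FPKM in knockout libraries and 71.1 to 191 FPKM in WT libraries. Most of the knockout sums came from Ly6c2, a marker of inflammatory monocytes, which had 150, 144 and 126 FPKM in knockout libraries, against 38.7, 11.6 and 13.0 FPKM in WT libraries. Without Ly6c2, singled out after its values were seen, the other 16 summed to 24.7 to 76.3 FPKM in knockout libraries and 32.4 to 178 FPKM in WT libraries. Of the 14 tested, 4 had a positive and 10 a negative log2 fold change, the macrophage genes C1qa, C1qb, C1qc, Mrc1, Cd5l and Fcna among the negative ones, and 0 were called by limma. C1qa and Fcna were listed at 0 in knockout replicates 1 and 3, and C1qb, C1qc, Mrc1 and Cd5l in knockout replicate 1. Cd5l was also listed at 0 in WT replicate 1. The 8 mast cell, basophil and eosinophil markers summed to 74.0 to 1069 FPKM in knockout libraries and 32.7 to 153 FPKM in WT libraries. Most of the highest sum came from Prg2, at 956 FPKM in knockout replicate 1 and 22.2 and 19.3 FPKM in knockout replicates 2 and 3. Of these 8, 7 had a positive and 1 a negative log2 fold change, and 0 were called by limma.

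Lysosome and autophagy transcripts were expressed in every library of both genotypes, and no member passed the test between them. Because FPKM corrects for transcript length, levels of different genes can be compared. The comparison used limma on log2(FPKM + 1) over the 11532 genes with a mean of at least 1 FPKM, and a gene was called at an adjusted p under 0.05. Of the 34 members, 0 were called higher and 0 lower in knockout cells, where 0.113% of all genes tested were called, 0.104% higher and 0.00867% lower. At an unadjusted p under 0.05 there were 5 members, against 9.16% of all genes tested, and the smallest adjusted p of any member was 0.385. The values of the genotypes did not overlap for 9 members, 5 higher and 4 lower in knockout libraries, where 15.8% of all genes tested did not overlap, 7.47% higher and 8.34% lower. The log2 fold change was positive for 25 of the 34 members, where it was positive for 48.1% of all genes tested. The members' log2 fold changes ran from -0.65 to 0.87 with a median of 0.07, beside a median of -0.01 over all genes tested.

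For most members the data bounded the difference between genotypes. The unadjusted 95% interval of the log2 fold change lay within 1 in either direction for 25 of the 34. Over all genes tested, 60.6% had such an interval. A log2 difference of 1 is a 2-fold difference of FPKM + 1, which for low genes is more than 2-fold in FPKM. Together the members took 0.336% to 0.355% of the FPKM sum in knockout libraries and 0.317% to 0.353% in WT libraries, so the ranges overlapped. The members' median log2(FPKM + 1) was 5.767, 5.918 and 5.823 in knockout libraries, against 5.578, 5.501 and 5.696 in WT libraries. These medians did not overlap, and the difference was not tested. In bulk libraries fewer cells of a type and less RNA per cell cannot be told apart.

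Members differed far more from each other than between genotypes. Averaged over the 6 libraries, 10 members stood at 100 FPKM or more, 16 between 10 and 100 FPKM and 8 below 10 FPKM. The most abundant was Ctsd, which encodes the aspartic protease cathepsin D, at a mean of 368 FPKM, and next came Map1lc3b at 293 FPKM. The 2 lowest were Ulk1 at 2.62 FPKM and Tfeb at 2.16 FPKM. Every member was above 3 fragments per kilobase of transcript in every library, a level between 0.211 and 0.322 FPKM depending on the library, and this covers counting error only.

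**Figure D1:**
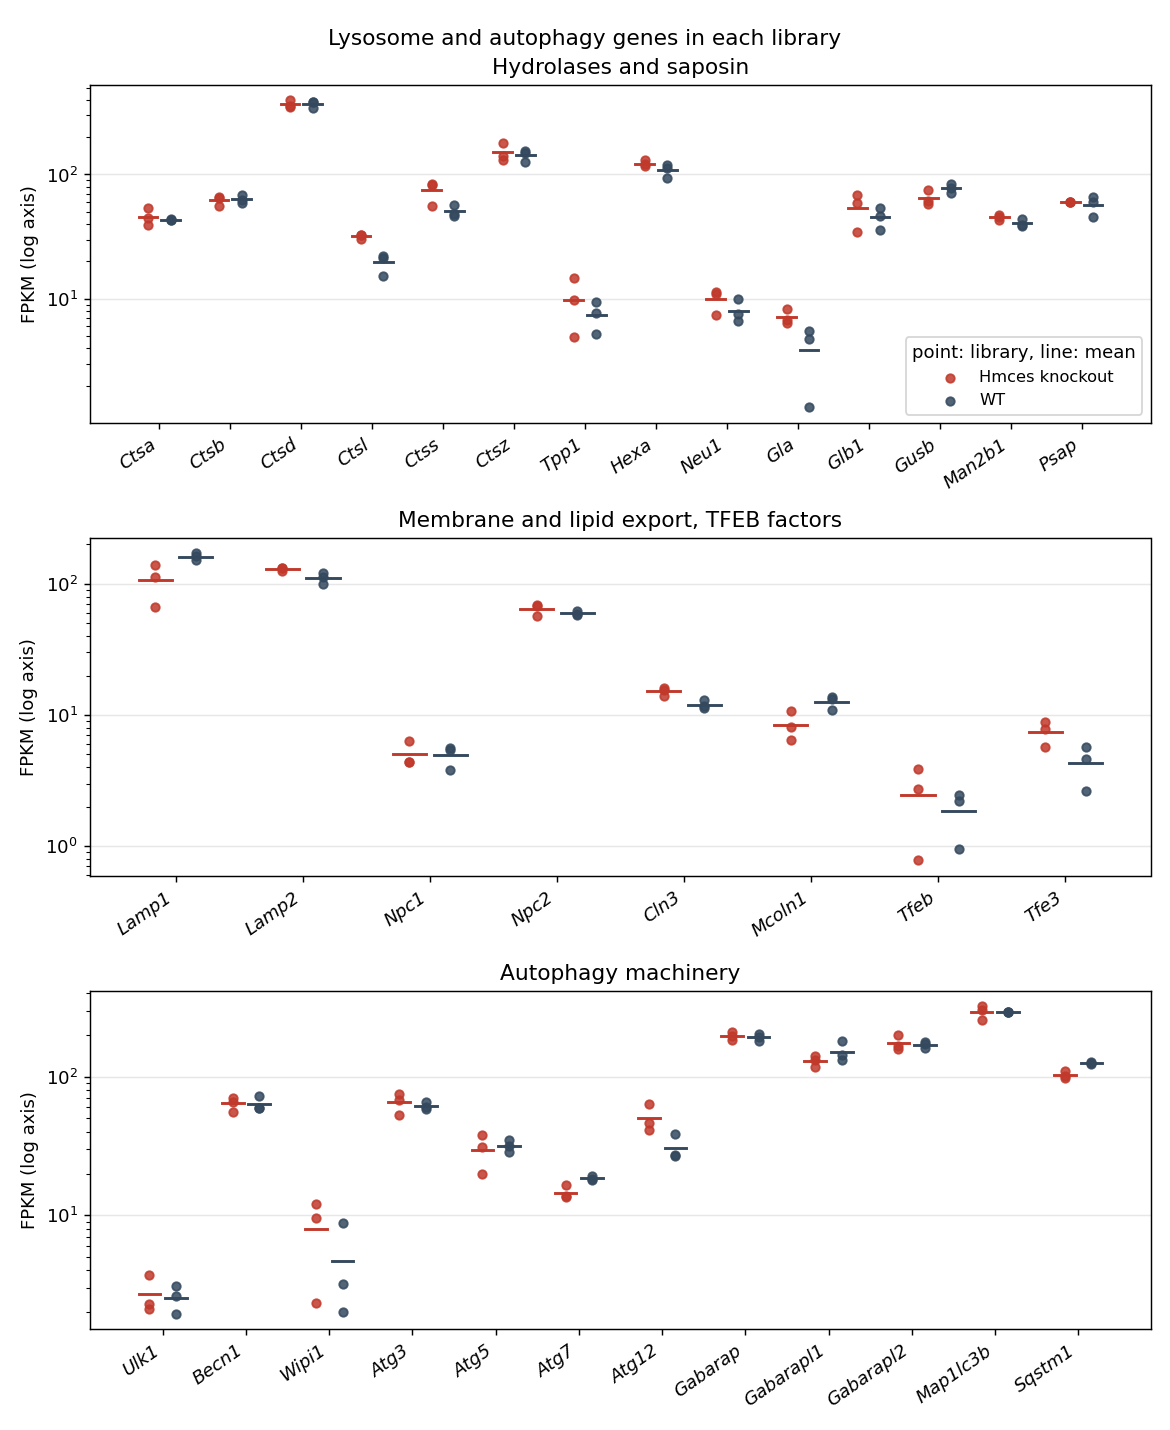
FPKM of the 34 members in each library (log axis), with Hmces knockout libraries left of WT libraries for each gene, one point per library and a line at the group mean. Levels span from 0.777 FPKM for Tfeb in one knockout library to 395 FPKM for Ctsd, and the groups overlap for all but 9 genes.

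The TFEB-family regulators were among the members with the lowest transcript levels. Tfeb had 3.89, 2.72 and 0.777 FPKM in knockout libraries, against 0.943, 2.43 and 2.21 FPKM in WT libraries. The knockout group held both the highest and the lowest Tfeb value, so the groups overlapped fully (log2 fold change 0.20, SE 0.47, limma adjusted p = 0.923). Tfe3, which encodes the related factor that can stand in for TFEB, had 7.77, 8.84 and 5.65 FPKM in knockout libraries, against 5.71, 4.63 and 2.63 FPKM in WT libraries. Its knockout values were higher on average, but knockout replicate 3 lay just below WT replicate 1 (log2 fold change 0.69, SE 0.32, adjusted p = 0.569). The 95% intervals, -0.88 to 1.28 for Tfeb and -0.06 to 1.44 for Tfe3, include a 2-fold difference.

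RefSeq promoter windows (build GRCm38.p6), from 250 bases before to 50 bases after an annotated start, were matched by symbol for 30 of the 34 members. The letters CACGTG, which read the same on both strands, occurred in the windows of 11 of these 30 genes, 36.7%. They occurred in 12.3% of all genes tested that had a window. Counted by window, they occurred in 11 of the 36 member windows, 30.6%, and in 7.15% of all 32851 windows. TCACGTG on either strand, which contains CACGTG, was found in 9 of the 30 members, 30.0%. It was found in 7.28% of all genes tested that had a window and in 3.77% of all windows. A match is a description of the letters and does not show binding. The windows printed here, read 5′ to 3′ on the strand of the gene and with CACGTG in capitals, belong to the 5 members with TCACGTG whose values did not overlap between genotypes. Gla is at chrX:134600956-134601255, Cln3 at chr7:126583187-126583486 (both on the minus strand). Lamp1 is at chr8:13158911-13159210, Mcoln1 at chr8:3500269-3500568 and Atg7 at chr6:114670846-114671145 (all on the plus strand). The starts used for Cln3 and Atg7 lie inside the annotated span of the gene.
Gla: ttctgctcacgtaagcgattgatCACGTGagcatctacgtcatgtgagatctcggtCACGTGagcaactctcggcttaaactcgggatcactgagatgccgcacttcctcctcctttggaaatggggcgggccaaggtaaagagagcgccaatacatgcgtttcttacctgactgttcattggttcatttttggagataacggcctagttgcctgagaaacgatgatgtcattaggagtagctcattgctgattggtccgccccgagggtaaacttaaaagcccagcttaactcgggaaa
Cln3: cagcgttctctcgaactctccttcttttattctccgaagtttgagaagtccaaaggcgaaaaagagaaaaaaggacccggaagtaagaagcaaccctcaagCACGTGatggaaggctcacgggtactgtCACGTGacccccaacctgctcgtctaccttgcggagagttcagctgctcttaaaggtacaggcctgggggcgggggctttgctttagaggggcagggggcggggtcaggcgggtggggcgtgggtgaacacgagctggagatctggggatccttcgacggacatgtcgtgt
Lamp1: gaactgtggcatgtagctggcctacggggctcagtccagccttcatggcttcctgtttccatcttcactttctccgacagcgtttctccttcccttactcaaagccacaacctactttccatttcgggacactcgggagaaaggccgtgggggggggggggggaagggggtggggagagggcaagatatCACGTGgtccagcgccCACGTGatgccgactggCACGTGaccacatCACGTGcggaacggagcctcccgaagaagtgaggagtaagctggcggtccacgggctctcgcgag
Mcoln1: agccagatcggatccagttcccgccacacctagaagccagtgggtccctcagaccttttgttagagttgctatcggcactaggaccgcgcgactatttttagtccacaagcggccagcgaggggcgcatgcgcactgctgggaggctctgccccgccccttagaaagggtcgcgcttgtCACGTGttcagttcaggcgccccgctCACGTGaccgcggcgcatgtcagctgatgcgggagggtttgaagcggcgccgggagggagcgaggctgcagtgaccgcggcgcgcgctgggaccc
Atg7: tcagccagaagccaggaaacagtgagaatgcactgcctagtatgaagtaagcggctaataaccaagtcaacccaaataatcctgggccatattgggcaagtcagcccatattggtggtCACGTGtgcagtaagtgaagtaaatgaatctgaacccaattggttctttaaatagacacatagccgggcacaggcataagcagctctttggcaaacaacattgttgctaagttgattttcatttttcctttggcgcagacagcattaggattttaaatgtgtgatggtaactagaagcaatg
Lamp1 held 4 copies of CACGTG, the first beginning 61 bases before the start and the last 15 bases before it. Gla, Cln3 and Mcoln1 held 2 copies each and Atg7 held 1. Of these 5 genes, picked because their genotypes did not overlap, Gla and Cln3 were higher in knockout libraries and Lamp1, Mcoln1 and Atg7 lower. Ctsl, which held CACGTG but not TCACGTG, was also higher without overlap. That made 3 higher and 3 lower without overlap among the 11 members with CACGTG. Over all genes tested the shares were 7.47% higher and 8.34% lower. The log2 fold change of the 11 members was positive for 6 and negative for 5, at a median of 0.07 and a range from -0.65 to 0.87.

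Lysosomal proteases were led in abundance by Ctsd. It had 347, 358 and 395 FPKM in knockout libraries, against 342, 386 and 382 FPKM in WT libraries. The groups covered nearly the same range, and the interval of its log2 fold change was -0.25 to 0.23. Ctsz, which encodes the carboxypeptidase cathepsin Z, averaged 151 ± 26.4 FPKM in knockout and 143 ± 14.7 FPKM in WT cells (SD, n = 3 each). Ctsb, the cathepsin B gene, averaged 62.3 ± 5.98 FPKM in knockout and 63.4 ± 4.52 FPKM in WT cells. These major endopeptidases and exopeptidases showed no difference beyond the spread between libraries. Ctsa, whose product protects β-galactosidase and neuraminidase, averaged 45.9 ± 7.54 FPKM in knockout and 43.3 ± 0.484 FPKM in WT cells. Tpp1, which encodes a tripeptidyl peptidase, averaged 9.79 ± 4.91 FPKM in knockout and 7.48 ± 2.13 FPKM in WT cells.

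The cysteine proteases Ctsl and Ctss had higher values in knockout libraries, although neither passed the test over all genes. Ctsl, which encodes cathepsin L, had 30.5, 32.4 and 32.7 FPKM in knockout libraries, against 15.3, 21.4 and 22.2 FPKM in WT libraries. Every knockout library lay above every WT library, and the mean was 1.62-fold higher (log2 fold change 0.69, SE 0.19, limma unadjusted p = 0.00648, adjusted p = 0.385). Its unadjusted p stayed under 0.05 in all 15 alternative fits, and without knockout replicate 2 the log2 fold change was 0.67. Ctss, which encodes cathepsin S of antigen-presenting cells, had 82.7, 84.1 and 56.2 FPKM in knockout libraries, against 46.8, 56.8 and 48.5 FPKM in WT libraries. Knockout replicate 3 lay within the WT range, while the other two knockout libraries lay above it (log2 fold change 0.53, SE 0.19, limma unadjusted p = 0.0226, adjusted p = 0.492). The unadjusted p for Ctss was under 0.05 in 11 of the 15 alternative fits. Cathepsin S is abundant in monocytes and macrophages, whose markers lay on both sides as given above, and the neutrophil and granulocyte progenitor markers had higher sums in all knockout libraries. The part of other cells in the Ctsl and Ctss values was not tested.

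Glycosidase genes and the saposin precursor had 6 of 7 positive log2 fold changes, with a median of 0.18, and 0 had an unadjusted p under 0.05. Hexa, which encodes the alpha subunit of β-hexosaminidase and was the most abundant of them, had 121, 117 and 129.9 FPKM in knockout libraries, against 93.6, 112 and 119.6 FPKM in WT libraries. The lowest knockout value lay below the highest WT value (log2 fold change 0.18, SE 0.13, adjusted p = 0.703). Gla, the α-galactosidase A gene deficient in Fabry disease, had 6.43, 8.28 and 6.82 FPKM in knockout libraries, against 5.52, 4.78 and 1.34 FPKM in WT libraries. These groups did not overlap, but the size of the difference rested on WT replicate 3, without which the log2 fold change was 0.41 instead of 0.87 (SE 0.42, adjusted p = 0.577). Gusb, the β-glucuronidase gene, was the one member of the subgroup with a negative log2 fold change, at 64.7 ± 8.51 FPKM in knockout and 77.6 ± 6.23 FPKM in WT cells.

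For Psap and the remaining glycosidase genes the values of the genotypes overlapped. Glb1, the β-galactosidase gene that underlies a common senescence stain, had 53.7 ± 17.02 FPKM in knockout and 45.3 ± 8.87 FPKM in WT cells. Man2b1, the lysosomal α-mannosidase gene, had 45.3 ± 2.24 FPKM in knockout and 40.6 ± 2.61 FPKM in WT cells. Neu1, the sialidase gene, had 9.93 ± 2.16 FPKM in knockout and 7.999 ± 1.71 FPKM in WT cells. Psap, whose protein is cut into the saposins that present lipids to hydrolases, had 60.5 ± 0.0749 FPKM in knockout and 57.1 ± 10.6 FPKM in WT cells.

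The lysosomal membrane genes Lamp1 and Lamp2 lay on opposite sides. LAMP1 and LAMP2 are the major glycoproteins that coat the inner face of the lysosomal membrane. Lamp1 had 140.0, 67.2 and 113 FPKM in knockout libraries, against 171, 152 and 162 FPKM in WT libraries. All knockout values lay below all WT values, with knockout replicate 2 the lowest (log2 fold change -0.65, SE 0.25, limma unadjusted p = 0.0288, adjusted p = 0.506). Without that library the log2 fold change was -0.36, and the unadjusted p was under 0.05 in 10 of the 15 alternative fits. Lamp2 had 133, 132 and 125 FPKM in knockout libraries, against 113, 101 and 122 FPKM in WT libraries. Its groups did not overlap in the other direction, by a margin smaller than the spread within WT (log2 fold change 0.22, SE 0.12, adjusted p = 0.613). As a result Lamp1 exceeded Lamp2 in every WT library, while in knockout libraries it did so in replicate 1 and not in replicates 2 and 3. This reading of the pair was made after the values were seen and was not tested.

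Of the channel and transport genes, Mcoln1 and Cln3 also did not overlap. Mcoln1, which encodes the lysosomal calcium channel TRPML1, had 8.14, 6.49 and 10.7 FPKM in knockout libraries, against 13.3, 13.8 and 10.9 FPKM in WT libraries. The highest knockout value came close to the lowest WT value (log2 fold change -0.55, SE 0.25, adjusted p = 0.552). Cln3, mutated in a juvenile form of neuronal ceroid lipofuscinosis, had 16.1, 13.9 and 15.6 FPKM in knockout libraries, against 11.2, 13.1 and 11.6 FPKM in WT libraries. Knockout values were all above WT values, with a log2 fold change of 0.32 (SE 0.19, adjusted p = 0.651). The cholesterol exporters Npc1 and Npc2, which hand cholesterol from the lumen to the membrane, had values that overlapped between genotypes. Npc1 averaged 5.01 ± 1.14 FPKM in knockout and 4.95 ± 1.02 FPKM in WT cells, and Npc2 averaged 64.5 ± 6.20 FPKM in knockout and 59.7 ± 2.22 FPKM in WT cells.

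**Figure D2:**
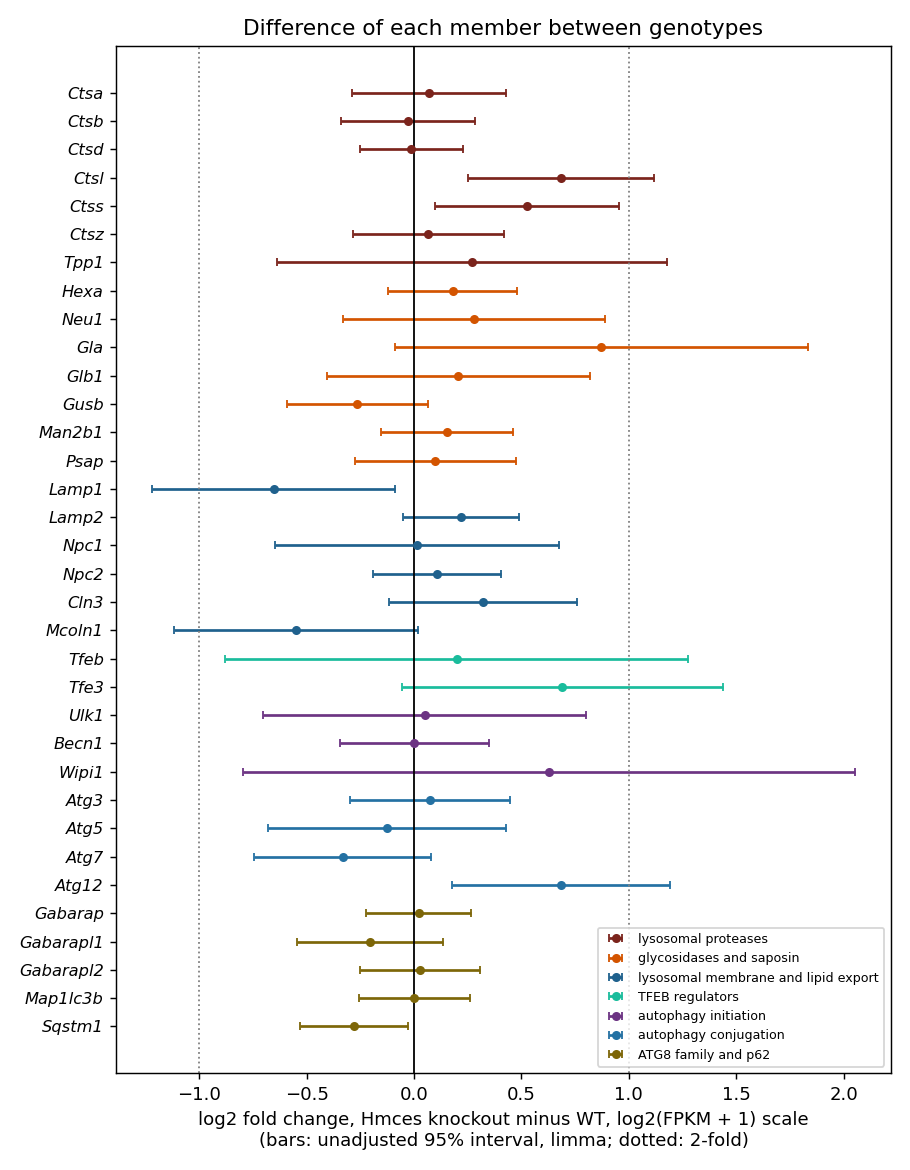
Log2 fold change of each member, Hmces knockout minus WT, from log2(FPKM + 1) values, with unadjusted 95% intervals from limma. Dotted lines mark a 2-fold difference of FPKM + 1. The intervals of Ctsl, Ctss, Atg12, Lamp1 and Sqstm1 leave out 0, and the abundant genes Ctsd, Map1lc3b and Gabarap have narrow intervals around 0.

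Genes that start autophagy showed no separation between genotypes. Becn1, which encodes the Beclin subunit of the lipid kinase complex that nucleates the membrane and was the most abundant of the 3, had 66.0, 70.4 and 55.8 FPKM in knockout libraries, against 59.7, 72.8 and 59.4 FPKM in WT libraries. The ranges covered each other, with a log2 fold change of 0.002 and an interval of -0.34 to 0.35. Ulk1, the initiating kinase gene, averaged 2.70 ± 0.881 FPKM in knockout and 2.54 ± 0.562 FPKM in WT cells. Wipi1, whose product reads the phosphoinositide on the forming membrane, had the largest relative spread within WT of all members, at 63.3% of the mean in knockout and 78.1% in WT cells. It averaged 7.99 ± 5.06 FPKM in knockout and 4.68 ± 3.66 FPKM in WT cells, and its interval, -0.79 to 2.06, therefore says little about a difference.

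Among the genes of ubiquitin-like conjugation, Atg12 and Atg7 separated the genotypes in opposite directions. ATG12 is the ubiquitin-like protein joined to ATG5, ATG7 is the activating enzyme for it and for the ATG8 proteins, and ATG3 passes the ATG8 proteins on to lipid. Atg12 had 41.1, 63.5 and 46.4 FPKM in knockout libraries, against 26.6, 38.7 and 27.2 FPKM in WT libraries. Each knockout value lay above each WT value, and the mean was 1.63-fold higher (log2 fold change 0.69, SE 0.22, limma unadjusted p = 0.0143, adjusted p = 0.481). Without knockout replicate 2, the highest library, the log2 fold change was 0.51, and the unadjusted p was under 0.05 in 13 of the 15 alternative fits. Atg7 had 13.8, 13.5 and 16.4 FPKM in knockout libraries, against 17.96, 18.4 and 19.4 FPKM in WT libraries. The knockout values were all lower, with a log2 fold change of -0.33 (SE 0.18, adjusted p = 0.614). Atg3, the most abundant of the 4, had 75.6, 52.6 and 68.2 FPKM in knockout libraries, against 65.7, 60.1 and 58.7 FPKM in WT libraries. Atg5 averaged 29.7 ± 9.01 FPKM in knockout and 31.6 ± 3.04 FPKM in WT cells, and like Atg3 it overlapped fully.

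The ATG8 genes, whose proteins coat the autophagosome once joined to lipid, had transcript levels that overlapped between genotypes, with all 4 log2 fold changes between -0.21 and 0.03. Map1lc3b, which encodes the LC3B form used as an autophagy marker, had 322, 258 and 302 FPKM in knockout libraries, against 291, 293 and 293 FPKM in WT libraries. WT libraries lay within the knockout range, and the interval of the log2 fold change was -0.26 to 0.26. Gabarap averaged 196 ± 12.8 FPKM in knockout and 193 ± 10.5 FPKM in WT cells, with an interval of -0.22 to 0.27. Gabarapl2 averaged 175 ± 20.9 FPKM in knockout and 171 ± 7.95 FPKM in WT cells, and Gabarapl1 averaged 130.3 ± 12.0 FPKM in knockout and 152 ± 25.1 FPKM in WT cells. For all 4 genes the interval stayed inside a 2-fold difference. Within the family the order of mean levels was the same in both genotypes, Map1lc3b first, then Gabarap, Gabarapl2 and Gabarapl1, although single libraries of Gabarap and Gabarapl2 overlapped in knockout cells and those of Gabarapl2 and Gabarapl1 overlapped in WT cells.

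Sqstm1, which encodes the receptor that carries ubiquitinated cargo to the ATG8 proteins and is itself degraded by autophagy, had 98.1, 111 and 101 FPKM in knockout libraries, against 126, 123 and 128 FPKM in WT libraries. All knockout values lay below all WT values, a difference of small size and small spread (ratio of means 0.823, log2 fold change -0.28, SE 0.11, limma unadjusted p = 0.0326, adjusted p = 0.515). Its unadjusted p was under 0.05 in 7 of the 15 alternative fits and ran from 0.0126 to 0.102 over them. Transcript levels do not measure autophagic flux, so they do not show how much cargo was delivered.

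**Figure D3:**
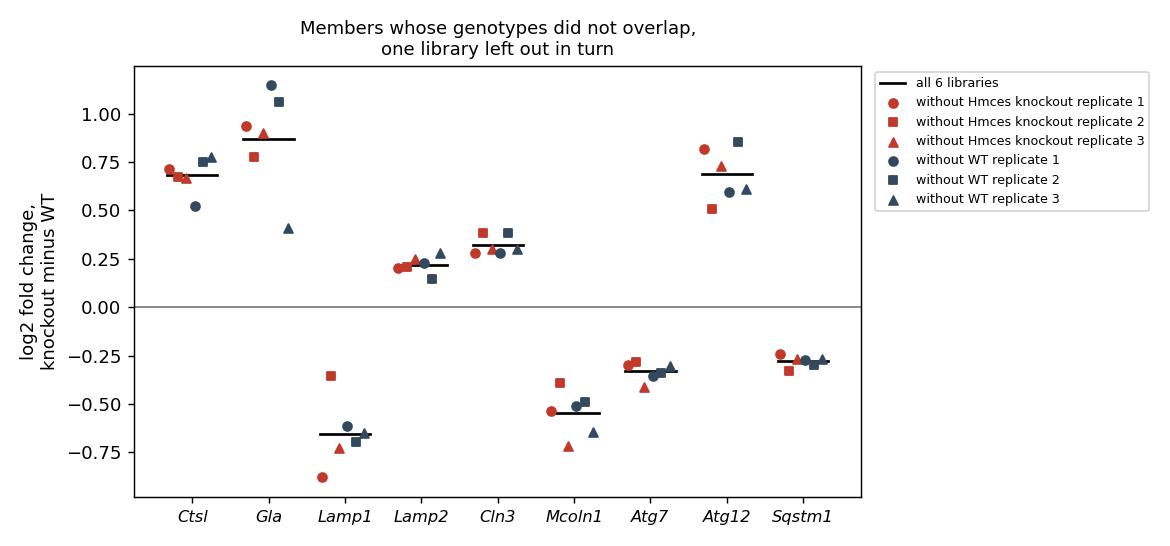
Log2 fold change (Hmces knockout minus WT) of the 9 members whose genotypes did not overlap, with all 6 libraries (black line) and with each library left out in turn (red, a knockout library left out; dark blue, a WT library left out). Each gene keeps its side of 0, as values that do not overlap must when a library is left out. Gla moves to 0.41 without WT replicate 3 and Lamp1 to -0.36 without knockout replicate 2.

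Other genes of the pathway were examined in 7 further lists. These held 145 genes, of which 140 were tested and 0 were called by limma in either direction. At an unadjusted p under 0.05 there were 7 higher and 4 lower in knockout cells, where 4.32% and 4.84% of all genes tested were higher and lower. The genotypes did not overlap for 17 of the 140, 11 higher and 6 lower, where 15.8% of all genes tested did not overlap. Subunits of the V-ATPase, the pump that acidifies the lysosome, had 12 of 17 positive log2 fold changes and a median of 0.18. Atp6v1a had 39.0 ± 4.06 FPKM in knockout and 27.1 ± 7.74 FPKM in WT cells, and Atp6v1d had 77.3 ± 11.7 FPKM in knockout and 59.7 ± 4.21 FPKM in WT cells. Neither passed (adjusted p = 0.526 and 0.535).

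Other lysosomal enzymes had a median of 0.04 over 32 tested genes. Ctsh, which encodes the aminopeptidase cathepsin H, had 12.8, 13.1 and 13.5 FPKM in knockout libraries, against 5.07, 5.67 and 3.11 FPKM in WT libraries. The groups stood well apart, yet with a log2 fold change of 1.36 (SE 0.26) the gene did not pass (adjusted p = 0.195). Lgmn, the legumain gene, had 5.12 ± 1.95 FPKM in knockout and 10.3 ± 1.37 FPKM in WT cells (adjusted p = 0.486). In the same libraries the neutrophil and granulocyte progenitor markers differed as given above, and their part in the Ctsh and Lgmn values was not tested. Other membrane and sorting genes had a median of 0.11 over 15 genes, with 0 at an unadjusted p under 0.05.

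Genes of mTORC1 and of TFEB control gave 9 positive and 17 negative log2 fold changes, at a median of -0.10. Rragb, one of the Rag GTPases that recruit mTORC1 to lysosomes, had 1.46 ± 0.834 FPKM in knockout and 3.68 ± 0.858 FPKM in WT cells (adjusted p = 0.520). The other autophagy initiation list had a median of 0.05 over 18 genes, with 0 at an unadjusted p under 0.05. In the conjugation and receptor list, with a median of 0.15 over 18 genes, Fundc1, a mitophagy receptor gene, had 94.9 ± 18.6 FPKM in knockout and 66.4 ± 6.85 FPKM in WT cells. Atg16l1, the partner of the ATG12 and ATG5 conjugate, had 14.0 ± 2.06 FPKM in knockout and 8.56 ± 1.88 FPKM in WT cells, whereas Atg4d, a protease that trims ATG8 proteins, had 7.95 ± 0.664 FPKM in knockout and 12.6 ± 2.13 FPKM in WT cells. For these 3 genes the genotypes did not overlap, although none passed the test (limma adjusted p = 0.490, 0.499 and 0.502). For Fundc1 the lowest knockout value was 74.9 FPKM and the highest WT value 74.0 FPKM. Fusion genes had a median of 0.02 over 14 genes. Tecpr1, which encodes a tether between autophagosome and lysosome, had 11.5 ± 1.83 FPKM in knockout and 4.98 ± 0.853 FPKM in WT cells (adjusted p = 0.313), and Rab7, the late endosomal GTPase gene, had 158 ± 6.74 FPKM in knockout and 192 ± 14.0 FPKM in WT cells (adjusted p = 0.506).

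**Figure D4:**
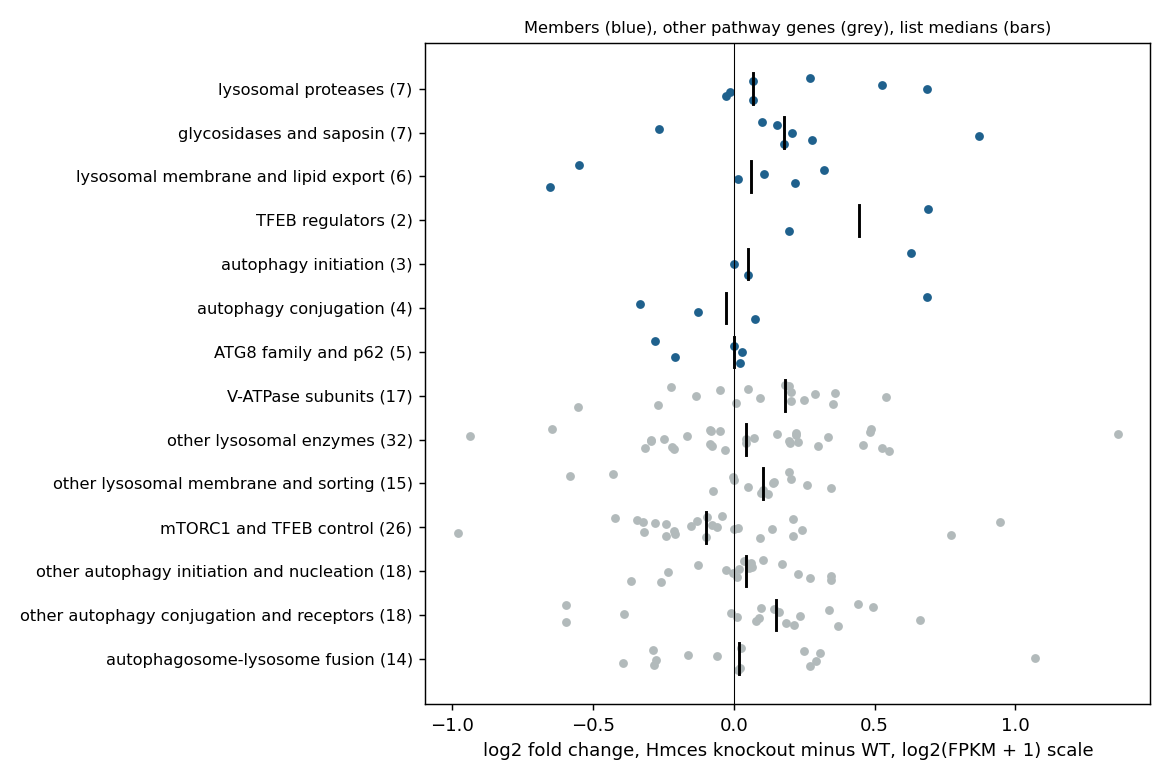
Log2 fold changes (Hmces knockout minus WT) of the members in 7 subgroups (blue) and of 140 other lysosome and autophagy genes in 7 lists (grey), with a black bar at each list's median and the number of tested genes in brackets. Medians stay between -0.10 and 0.44, and the list at the high end is the pair of TFEB regulators.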

How the data were processed

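Gene expression was measured in 3 Hmces knockout and 3 WT libraries of sorted LT-HSCs. The authors deposited FPKM values in one table with a column for each library. Tools listed by the submitters' processing notes are TopHat2 2.1.1 and Cufflinks 2.2.1, with genome build mm9. The sources used here do not give alignment options, annotation or strand use. FPKM is scaled to a fixed total, so each level is relative to the other transcripts of its library, and an exact 0 can be a failed estimate.

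Members were matched by exact symbol. Of 258 symbols in all lists, 250 matched directly and 8 through a RefSeq synonym. Genes with a mean of at least 1 FPKM were fitted with limma 3.58.1 in R 4.3.3 (variance trend, genotype as the only term, pseudocount 1). Tests were two-sided, with Benjamini-Hochberg adjustment over all 11532 genes. Fold changes are differences of mean log2(FPKM + 1), knockout minus WT, and understate changes of low genes. Depth was estimated from the commonest low FPKM value of 982 genes with 1 transcript over 1500 nt, with an assumed fragment length of 200 nt. Transcript lengths came from GENCODE.

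The members and lists were chosen with earlier results of these data known. A member was given library by library where its unadjusted p was under 0.05, where the genotypes did not overlap, where it led its subgroup, or where it was a TFEB-family gene. Of the other lists, a gene was named where it was called or had one of the 3 smallest p under 0.05. One gene that met this rule is not reported here. Alternatives were another pseudocount, other filters, other scalings, other variance models, no small RNA genes, the replicate number as a block and each library left out.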

Additional observations from a re-analysis of the deposited data

How the results depend on the processing

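In each of the 15 alternative fits 0 members were called, and the smallest adjusted p of any member lay between 0.283 and 0.82. The number of genes called over the whole table, 13 with all libraries, came to 1 when low values were not filtered, 6 when no variance trend was fitted, 20 with robust estimation and 32 without small RNA genes. Leaving out a library gave between 2 and 19 calls, with 5 without knockout replicate 2, 2 without knockout replicate 3 and 7 without WT replicate 2. The median log2 fold change of the members was 0.11 under quantile normalization and between 0.07 and 0.10 with a library left out. Same-numbered libraries of the genotypes showed no strong shared deviation (correlations 0.08, 0.01 and 0.04, against -0.083 to 0.048 for the other pairs). The labels do not say whether the numbers pair libraries, and with 3 libraries per genotype these correlations cannot decide it. With the replicate block 2 genes were called.

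The log2 fold change of 15 members had the opposite sign in at least 1 fit, and the cause was not tested. Quantile normalization gave 0.005 for Ctsb, 0.021 for Ctsd, -0.028 for Npc1 and -0.009 for Ulk1, and median-ratio scaling gave 0.001 for Ctsd. With a library left out the log2 fold change ran from -0.05 to 0.18 for Ctsa, from -0.073 to 0.053 for Ctsb, from -0.068 to 0.026 for Ctsd, from -0.069 to 0.166 for Ctsz, from -0.057 to 0.651 for Tpp1 and from -0.057 to 0.206 for Psap. It ran from -0.136 to 0.10 for Npc1, from -0.111 to 0.619 for Tfeb, from -0.138 to 0.162 for Ulk1, from -0.068 to 0.098 for Becn1, from -0.036 to 0.221 for Atg3 and from -0.318 to 0.125 for Atg5. The range was from -0.025 to 0.069 for Gabarap, from -0.067 to 0.089 for Gabarapl2 and from -0.067 to 0.092 for Map1lc3b. The 9 members whose genotypes did not overlap kept their sign in all 15 fits. Only quantile normalization and median-ratio scaling could have changed it, because values that do not overlap keep their side in the other fits. Tfeb, Ulk1 and Npc1 fall below the stricter filter of 5 FPKM and have no value there. Depth limits Tfeb most, at 0.777 FPKM in knockout replicate 3, where 3 fragments per kilobase amount to 0.322 FPKM.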
